A study of Mus musculus with 6 samples.

Results

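The cardiac sarcomere and natriuretic peptide genes considered here were Myh6, Myh7, Myl4, Mybpc3, Tnnt2, Tpm1, Actn2, Ttn, Nppa and Nppb. Their accessible regions were taken from the authors' deposited table of ATAC-seq peaks in mouse embryonic stem cells as every peak whose gene symbol was one of these 10. This gave 23 of 65535 listed peaks, held by 8 of the 10 genes. Myh6 and Myh7 had no listed peak.

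ATAC-seq marks open chromatin by the sites where the Tn5 transposase can insert. The table compares 3 libraries of control cells, labelled WT, with 3 libraries of Lmna KO cells, and Lmna encodes the nuclear lamina proteins lamin A and C. Both groups were E14 stem cells carrying Tg(Nkx2-5-EmGFP), a fluorescent reporter for the cardiac factor Nkx2-5. Both were kept undifferentiated with leukemia inhibitory factor over mitomycin-treated fibroblast feeders, which were depleted by preplating. Whether replicate libraries came from different cultures or from 1 clone is not in the labels, so the p-values may reflect technical spread only.

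The sarcomere is the contractile unit of striated muscle. Myosin heavy chains (Myh6, Myh7) with their light chains (Myl4) form the thick filament, which myosin-binding protein C (Mybpc3) decorates. Actin with troponin (Tnnt2) and tropomyosin (Tpm1) forms the thin filament, alpha-actinin (Actn2) crosslinks thin filaments at the Z-disc, and titin (Ttn) spans from the Z-disc to the centre of the sarcomere. Nppa and Nppb encode the natriuretic peptides ANP and BNP, hormones of heart muscle that lie beside each other in the genome. All of these genes belong to cardiomyocytes rather than to stem cells, although Tpm1 also has isoforms in non-muscle cells that start from an internal promoter.

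Levels are the authors' log2 group means of normalised reads in a peak, called concentration in the table. Folds are log2 differences, knockout minus control, and a peak is called gained or lost here where its deposited false discovery rate (FDR) over all tested peaks was 0.05 or less. The table holds group means only, so no value per library can be given and the depth of each library is unknown. In place of a replicate spread, each fold is given with the standard error (SE) implied by its deposited p under a normal test, or with the 95% interval from that SE. The table stops at a p of 0.422 (65535 of an estimated 99078 tested peaks), so a site with no listed peak either had no peak or had a p above that value. In a bulk sample, more cells with an open site and a site open more often in each cell cannot be told apart.

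At Lmna itself, which checks the labels, 2 of its 5 listed peaks, both inside the gene, were lost, with deposited log2 folds of -4.27 and -3.93, and 2 further upstream were gained. The 10 stem cell markers examined all had listed peaks, with a median log2 level of 4.82 in control over 72 peaks. For fibroblast markers of the feeder layer, 11 of 12 had listed peaks, 34 in number. Their median level was 3.94 in control and 3.54 in knockout cells, and 2 peaks were gained and 1 lost. After centring on the median fold of all listed peaks and retesting, 0 were gained and 6 lost. The median log2 fold of the fibroblast markers was -0.4, beside 0.6 for the stem cell markers and 0.49 over all listed peaks. The part of feeder cells in the results below was not tested.

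Promoter windows from RefSeq (GRCm38.p6, the assembly of mm10), from 250 bases before a start to 50 after it, were matched for all 10 genes, and 3 of them, Nppb, Myl4 and Actn2, had a listed peak over their window. Of these 3 peaks the one at Nppb was called. Among 17492 protein-coding genes, 43.9% had a listed peak over a window and 5.57% a gained one. The 3 covered promoters are shown because the data bear on them, and that of Nppa because it is the neighbouring peptide gene and had no listed peak there. The 250 bases before each start are given, 5′ to 3′ on the strand of the gene. Distances of a peak from a RefSeq start, or into a gene, are from the start of such a window. That start can lie inside the RefSeq gene. Capitals mark matches, on either strand, to the TATA box searched as TATAAA, the motif of the GATA factors searched as AGATAA, that of NKX2-5 searched as TNAAGTG, the M-CAT motif of TEAD factors searched as CATTCCT, and the MEF2 element.
Nppb, chr4:147985650-147985899, plus strand: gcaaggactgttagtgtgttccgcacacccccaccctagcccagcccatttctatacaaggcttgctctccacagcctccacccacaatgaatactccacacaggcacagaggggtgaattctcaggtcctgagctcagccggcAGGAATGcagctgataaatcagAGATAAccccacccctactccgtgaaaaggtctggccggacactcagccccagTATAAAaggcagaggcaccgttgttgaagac
Nppa, chr4:148000472-148000721, plus strand: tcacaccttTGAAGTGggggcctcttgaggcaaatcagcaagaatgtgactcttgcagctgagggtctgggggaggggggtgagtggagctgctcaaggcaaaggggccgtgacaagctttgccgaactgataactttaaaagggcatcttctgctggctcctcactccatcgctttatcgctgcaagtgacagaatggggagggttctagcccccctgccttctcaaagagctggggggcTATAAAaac
Myl4, chr11:104550413-104550662, plus strand: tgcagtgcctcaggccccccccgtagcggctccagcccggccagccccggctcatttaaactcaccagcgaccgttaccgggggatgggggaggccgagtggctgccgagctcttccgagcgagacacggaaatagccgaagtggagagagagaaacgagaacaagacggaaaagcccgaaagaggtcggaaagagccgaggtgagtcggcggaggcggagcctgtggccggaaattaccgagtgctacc
Actn2, chr13:12340733-12340982, minus strand: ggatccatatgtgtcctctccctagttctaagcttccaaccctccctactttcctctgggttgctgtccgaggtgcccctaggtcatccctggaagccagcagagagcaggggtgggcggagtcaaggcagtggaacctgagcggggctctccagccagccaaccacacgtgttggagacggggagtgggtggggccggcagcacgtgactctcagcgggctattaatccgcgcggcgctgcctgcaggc

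The Nppb window held a match to TATAAA from 31 to 26 bases before the start, one to AGATAA from 84 to 79 bases before it, and one to CATTCCT, on the opposite strand, from 106 to 100 bases before it. The Nppa window held TATAAA 9 to 4 bases and TNAAGTG 241 to 235 bases before its start. No capitals appear in the Myl4 and Actn2 windows, whose 23 and 12 CpG dinucleotides compare with 5 in Nppb, 4 in Nppa and a median of 10 over 21263 protein-coding windows. Over those windows TATAAA was present in 11.6%, AGATAA in 8.81%, TNAAGTG in 9.4%, CATTCCT in 3.96% and the MEF2 element in 1.57%. Among the 12 windows of the 10 genes, CATTCCT was found in 4 (Myh6, Tnnt2, Tpm1 and Nppb), each of the other motifs just named in 2, and the CArG box in 0, against 1.39% of all windows. The E-box CANNTG was in 11 of the 12 windows and in 62.8% of all windows, and overlapped no motif in capitals in Nppb. A match describes the letters and is not evidence of a bound factor.

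Of the 23 peaks, 5 changed, which is 21.7% beside 18.4% of all listed peaks, with 4 gained and 1 lost in the knockout cells. The gained peaks lay at Nppb, Myl4 and Mybpc3, which held 2 of them, and the lost peak lay at Tpm1. The gained share was 17.4%, beside 16.1% of all listed peaks, and the lost share was 4.35%, beside 2.26%, so the counts stood near the background of the table. Without chromosome 14, which holds none of these 23 peaks and most of whose changed peaks were gains, the gained background was 11.8%. By gene, 3 of the 8 with a listed peak had a gained one and 1 a lost one, beside 28.8% and 7.19% of the 17625 genes in the table. The median log2 fold was 0.55 (quartiles 0.35 and 1.07), beside 0.49 over all listed peaks.

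Since the median of all listed folds lay 0.49 above 0, changes are also given relative to it. On that centred scale the log2 folds of the changed peaks were 1.64 at Nppb, 1.31 at Myl4, 1.44 and 1.18 at Mybpc3 and -2.42 at Tpm1. The listed peaks were also retested around this median with the implied SE. The adjustment counted all tested peaks, but unlisted ones could not be retested and were taken as not passing. In this retest the Nppb gain (adjusted p = 0.0016), the Myl4 gain (adjusted p = 1.79e-05) and the Tpm1 loss (adjusted p = 0.00331) passed. Both Mybpc3 peaks missed the threshold (adjusted p = 0.0555 for each). Of all listed peaks, 4.47% were gained and 8.93% lost in this retest.

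**Figure D1:**
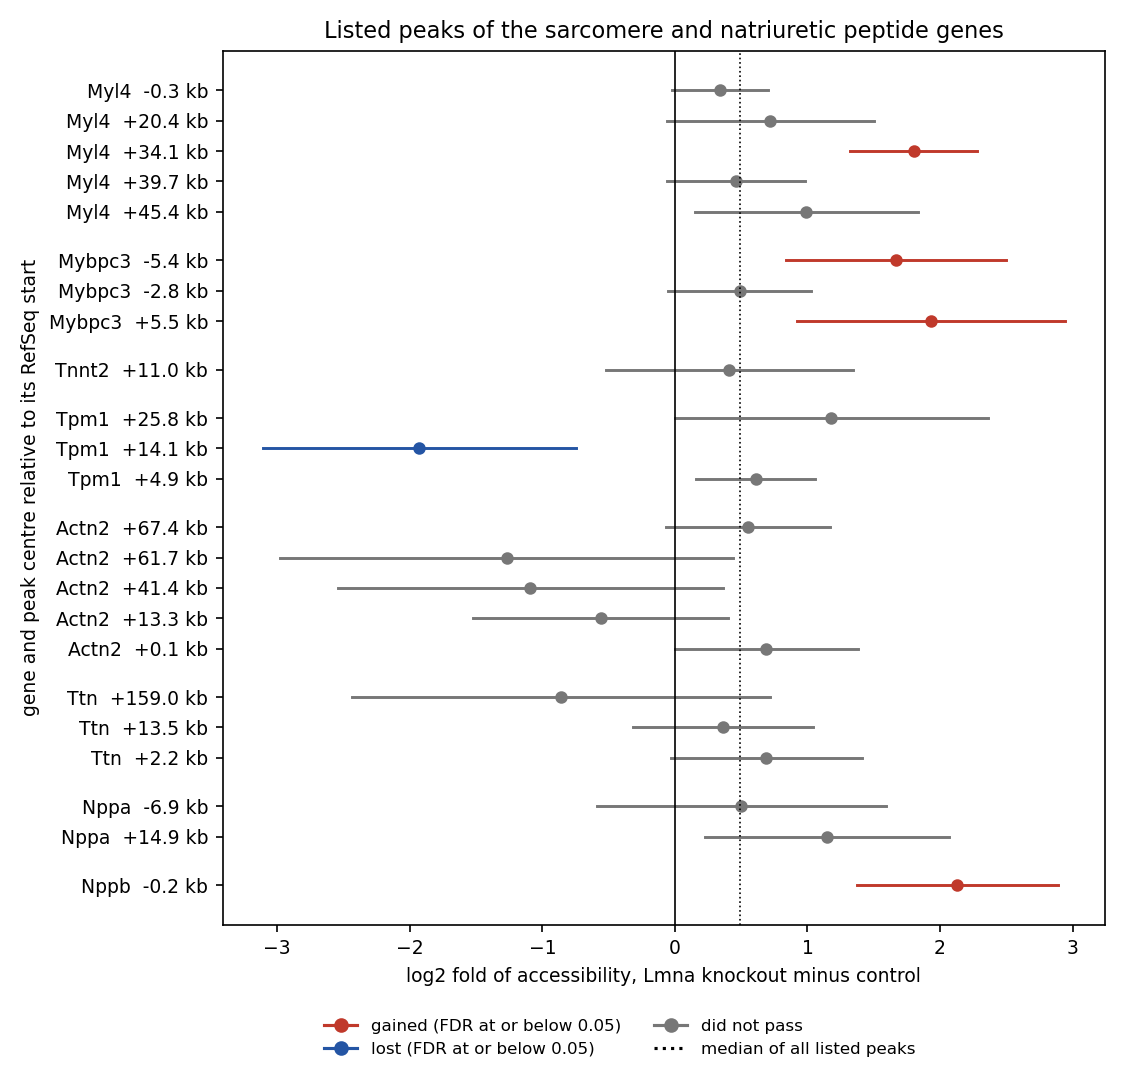
Deposited log2 fold (horizontal axis, knockout minus control) of each of the 23 listed peaks, grouped by gene and labelled by the distance of the peak centre from the RefSeq start in kb. Bars are 95% intervals implied by the deposited p, and the dotted line is the median of all listed peaks, 0.49. The 4 gained peaks lie between 1.67 and 2.13, and the lost Tpm1 peak lies at -1.93.

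Of the thick filament genes, Myl4 and Mybpc3 carried all 8 listed peaks, and every one of these had a positive fold. Over all listed peaks 69.1% of folds were positive. Relative to the median of all listed folds, some of the 8 lay at or below 0 (-0.15 and -0.03 at Myl4, 0.0 at Mybpc3) and the others above it. Myl4, the atrial and embryonic essential light chain, had 5. The peak over its RefSeq start, chr11:104549617-104551122, was the most accessible of all 23 by level over the whole peak, at a log2 level of 6.55 in control and 6.88 in knockout cells in the deposited table. Its deposited log2 fold was 0.34 (95% interval -0.02 to 0.7, FDR 0.213) and did not pass.

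The gain at Myl4 lay instead at the other end of the gene. In the deposited table the level at chr11:104583760-104585719 was 4.92 in control and 6.72 in knockout cells, a log2 fold of 1.8 (SE 0.24, FDR 5.73e-11), or 3.48-fold higher accessibility. This peak is annotated as a promoter because it spans an annotated transcript start of Myl4. Its centre is 34.1 kb downstream of the RefSeq start used for the promoter window, 104550663. That start itself lies inside the RefSeq gene (chr11:104546017-104587215). The gained peak ends just before the end of that gene. The 95% interval of its fold, 1.32 to 2.28, did not overlap that of the peak at the RefSeq start. The gained peak was chosen by its call, and the difference between the 2 peaks was not tested.

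The other 3 Myl4 peaks lay 20.4, 39.7 and 45.4 kb downstream of the start and had deposited log2 folds of 0.72, 0.46 and 0.99, none of which passed (FDR 0.229, 0.252 and 0.11). The last of these is annotated as 3' UTR in the deposited table. Within 100 kb of the gained peak were 16 other listed peaks, of which 13 had a positive fold and none was called at an FDR of 0.05. Over all listed peaks 69.1% had a positive fold. On the centred scale 2 of the 16 were lost in the retest, at Cdc27 and Gm11665 (centred log2 folds -2.9 and -1.57).

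Mybpc3, whose protein binds and regulates cardiac myosin, gained at 2 of its 3 listed peaks. At chr2:91112454-91113068, centred 5.38 kb upstream of the start, the deposited level was 3.23 in control and 4.9 in knockout cells, a log2 fold of 1.67 (SE 0.42, FDR 0.00225). The deposited annotation places this peak in intron 2 of 3 of a transcript of Spi1, the neighbouring gene for a blood cell transcription factor, so its assignment to Mybpc3 rests on distance alone. At chr2:91123426-91123939, in exon 13 of 35 of Mybpc3 itself, the deposited level was 2.75 in control and 4.68 in knockout cells, a log2 fold of 1.93 (SE 0.52, FDR 0.0043).

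Between these 2 peaks, at chr2:91115019-91115595, the deposited log2 fold was 0.49 (95% interval -0.05 to 1.03) and did not pass (FDR 0.241). That peak, 2.84 kb upstream of the start, had the highest control level of the gene, 5.17. The gene's RefSeq promoter window had no listed peak over it. Of 15 other listed peaks around the upstream gain, 11 had positive folds, beside 69.1% of all listed peaks. Of the 15, 2 were gained, the exonic Mybpc3 peak and the promoter of Madd, a regulator of Rab GTPases (deposited log2 fold 0.64, FDR 0.0109). Ddb2, a gene of DNA damage recognition, gained a peak 97.7 kb from the exonic one (deposited log2 fold 1.85, FDR 6.04e-05).

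Myh6 and Myh7, the alpha and beta cardiac myosin heavy chains, stand in tandem on chromosome 14 at 54941921-54968017 and 54970684-54994626. No listed peak overlapped either gene. The nearest listed peak to Myh6 was 2064 bases away and assigned to Cmtm5, with a deposited log2 fold of 0.76 (FDR 0.154). For Myh7 it was 19790 bases away at the promoter of Ngdn, with a deposited log2 fold of 0.29 (FDR 0.319). The data thus give no measurement of change at either heavy chain gene.

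The thin filament genes held 4 listed peaks, of which 1 was lost. Tpm1 encodes alpha-tropomyosin, which covers the myosin-binding sites of actin. In the deposited table the level at chr9:67034853-67035428 was 3.92 in control and 1.99 in knockout cells, a log2 fold of -1.93 (SE 0.6, FDR 0.0184), so that knockout accessibility was 0.262 of control. The peak lies inside Tpm1, 14.1 kb downstream of the RefSeq start, and carries a promoter annotation because an annotated transcript begins within 3000 bases of it. No gain or loss was called at an FDR of 0.05 at its other peaks.

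The most accessible Tpm1 peak, chr9:67043487-67045148, spans an internal transcript start 4.9 kb into the gene. Its level was 6.1 in control and 6.71 in knockout cells, and its deposited log2 fold of 0.61 (95% interval 0.16 to 1.06) narrowly missed the threshold (FDR 0.0578). The peak in the 3' UTR, chr9:67023102-67023707, had a deposited log2 fold of 1.18 (FDR 0.187). The 95% intervals of both lay above that of the lost peak, -3.11 to -0.75. The lost peak was chosen by its call, and differences between the peaks were not tested.

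The loss at Tpm1 was one of 3 losses in its neighbourhood. Of 5 other listed peaks within 100 kb, 3 had positive folds, and the median over the 5 was 0.61. At an FDR of 0.05, 2 of the 5 were lost and 0 gained, beside 2.26% and 16.1% of all listed peaks. One, assigned to Lactb, a gene for a mitochondrial protein, lay 31.6 kb away and had a deposited log2 fold of -3.91 (FDR 0.00367), from a level of 3.46 in control to -0.45 in knockout cells. The other, assigned to the predicted gene Gm10646, lay 70.9 kb away on the other side and had a deposited log2 fold of -1.99 (FDR 0.012). The control levels of the 3 lost peaks were 3.92, 3.46 and 4.08 at Tpm1, Lactb and Gm10646, against a median control level of 3.78 over listed peaks.

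Tnnt2, cardiac troponin T, had 1 listed peak, chr1:135847097-135847518, in intron 8 of 15 of a transcript. Its level was 3.94 in control and 4.35 in knockout cells, with a deposited log2 fold of 0.41 (95% interval -0.52 to 1.34, FDR 0.606). Its promoter windows had no listed peak.

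The scaffold genes Actn2 and Ttn held 8 listed peaks, and none passed at an FDR of 0.05, while 0 of the 8 had a deposited p under 0.05 before adjustment. Positive folds were found at 4 of the 8 and negative ones at 4, with a median of -0.1. Over all listed peaks 69.1% were positive, with a median of 0.49. At Actn2 the peak over the RefSeq start, chr13:12340241-12341088, had a level of 4.37 in control and 5.06 in knockout cells (deposited log2 fold 0.69, FDR 0.191). A peak close to an annotated transcript start near the 3' end of Actn2, chr13:12272925-12273794, had a deposited log2 fold of 0.55 (FDR 0.251). Between them, 3 peaks in exon 15 and in introns 7 and 1 had deposited log2 folds of -1.27, -1.09 and -0.56 (FDR 0.351, 0.343 and 0.479).

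Ttn, the gene of the giant elastic protein, had a peak 2.17 kb into the gene at an annotated transcript start, chr2:76980105-76980652, with a level of 4.06 in control and 4.75 in knockout cells (deposited log2 fold 0.69, FDR 0.207). Its peak in exon 8 of 191 had a deposited log2 fold of 0.36 (FDR 0.522). The remaining peak, 159.0 kb into the gene, was among the weakest, with a mean log2 level of 2.17 and a deposited log2 fold of -0.86 (FDR 0.514). Over a gene of 278578 bases, 3 listed peaks were thus recorded and none was called.

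The 2 peptide genes differed in where they had listed peaks. Nppb, which encodes BNP, had its single listed peak over its promoter, chr4:147985362-147985959, and all 250 bases printed above lie within it. In the deposited table its level was 3.19 in control and 5.32 in knockout cells, a log2 fold of 2.13 (SE 0.39, FDR 4.21e-06), or 4.38-fold higher accessibility. This was the largest fold among the 23 peaks and exceeded 96.6% of all listed folds.

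Nppa, which encodes ANP and starts about 14.8 kb downstream of Nppb, had no listed peak over its promoter. Its peaks were an intergenic one between the genes, chr4:147993621-147994041, with a deposited log2 fold of 0.5 (FDR 0.59), and chr4:148015466-148015816, with 1.15 (FDR 0.0887). The latter lies in intron 13 of 22 of a transcript of Clcn6, a chloride transporter gene, 14.9 kb from the Nppa start. Neither passed at an FDR of 0.05. The distance rule of the deposited table alone assigns both to Nppa.

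Around the Nppb peak, 11 of 12 other listed peaks had positive folds, with a median of 0.73. Over all listed peaks 69.1% were positive, with a median of 0.49. In the retest 0 of the 12 were gained and 1 was lost. The promoters of Plod1, a collagen-modifying enzyme gene (deposited log2 fold 0.97, FDR 0.00534), and of Clcn6 (0.7, FDR 0.0105) were gained, 48.3 and 53.2 kb away. An intronic peak of Clcn6, 41.8 kb away, was lost (deposited log2 fold -2.86, FDR 0.014). On the centred scale the log2 folds of the Plod1 and Clcn6 promoters were 0.48 and 0.21, and neither passed the retest.

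**Figure D2:**
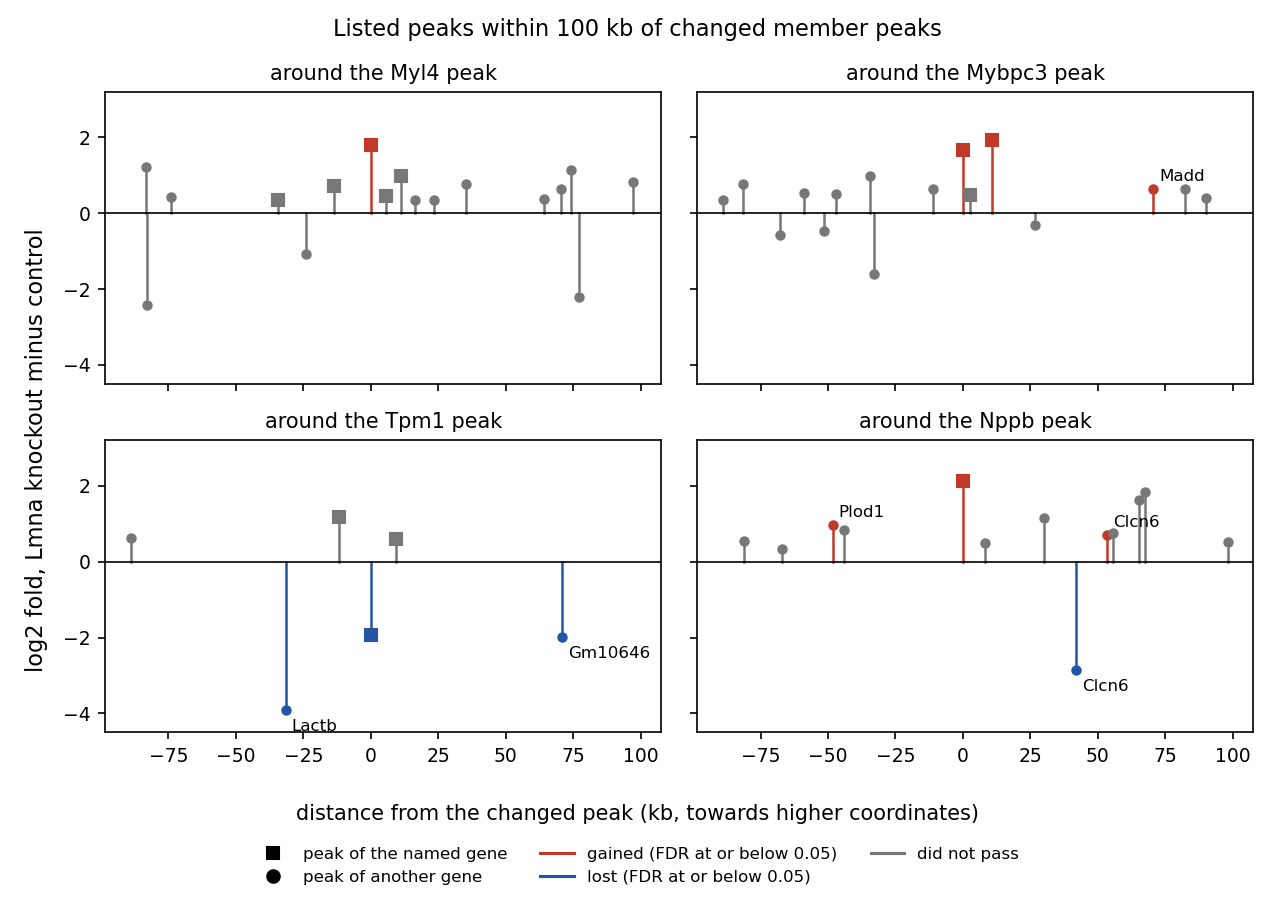
Deposited log2 fold (vertical axis) of every listed peak within 100 kb of a changed peak at Myl4, Mybpc3 (around its upstream gain), Tpm1 and Nppb, by distance in kb. Squares are peaks of the named gene and circles those of other genes, and called peaks are coloured, with other genes named. At Myl4 the gained peak is the one peak called at the deposited FDR, while at Tpm1 all 3 called peaks are losses.

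Set per length, the log2 level per kb of the 4 gained peaks was between 3.71 and 3.95 in control cells and between 5.6 and 6.06 in knockout cells. These peaks were chosen by their change, so a low start and a high end partly follow from the call. Some peaks that were not called had control levels per kb near these, at Myl4 (3.65), Tpm1 (3.5) and Nppa (4.1), and others had higher ones. Among the 10 peaks annotated as promoters, the Nppb peak had the lowest log2 level per kb in control (3.93, rank 10) and rank 3 in knockout cells (6.06). The Myl4 peak at the gene's end moved from rank 9 (3.95) to rank 5 (5.75), and the lost Tpm1 peak from rank 6 (4.72) to rank 10 (2.79). The peaks at the Myl4 start and 2.84 kb upstream of Mybpc3, equal at a log2 level per kb of 5.96 in control, held ranks 2 and 1 in knockout cells. These ranks carry no error, since the spread of a level between libraries is not known. For called peaks a move in rank restates the fold. Of the 10 promoter peaks 2 were gained, beside 13.1% of all listed promoter peaks, and 1 lost, beside 1.28%.

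**Figure D3:**
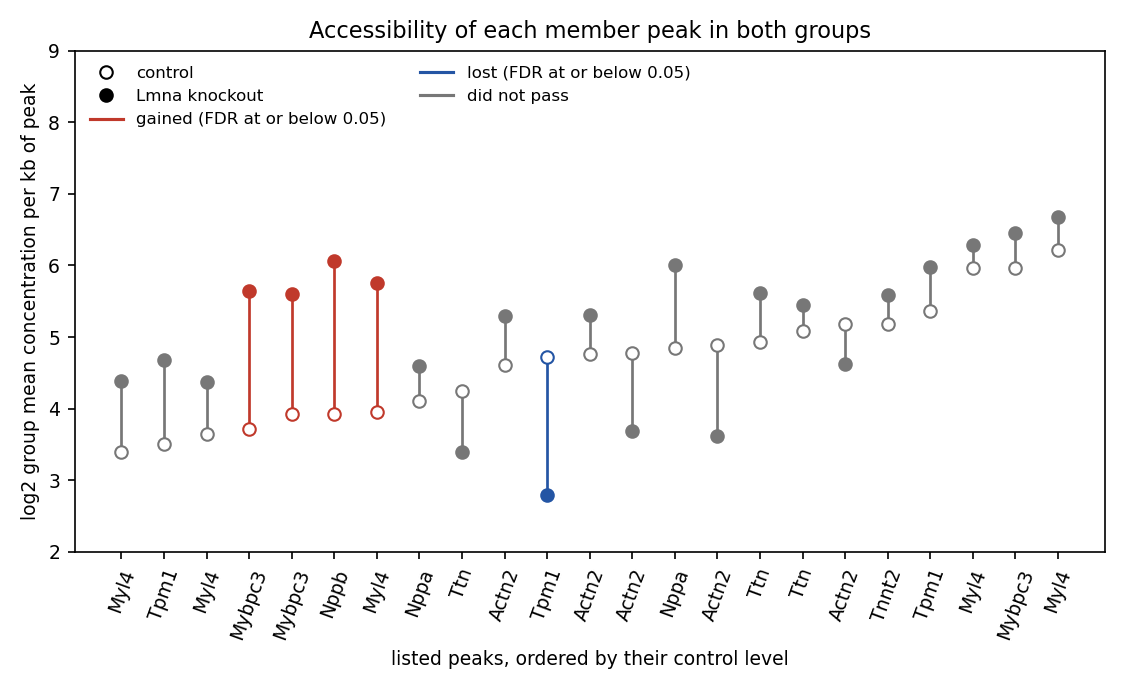
Log2 group mean concentration per kb of peak (vertical axis) in control (open circles) and knockout cells (filled circles) for the 23 listed peaks, ordered by control level. The 4 gained peaks start between 3.71 and 3.95 and end between 5.6 and 6.06, while the lost Tpm1 peak goes from 4.72 to 2.79.

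Other genes of the sarcomere had a lower share of gained peaks than the table as a whole, a difference that was not tested. Without chromosome 14, which held none of their gained peaks, the background was 11.8% gained with a median log2 fold of 0.44. Of 63 further genes for thick and thin filaments, the Z-disc and sarcomere assembly or turnover, 51 had 160 listed peaks, of which 11 were gained and 3 lost (6.88% and 1.88%), with a median log2 fold of 0.42. Centred and retested as above, 1 was gained and 14 were lost, so the balance of calls turned over. The 1 gain that passed the retest lay at Palld, while all 3 losses also passed it. Such a turnover was seen over all listed peaks as well, of which 4.47% were gained and 8.93% lost in the retest. Retest counts of the lists below stand beside these same shares. In the deposited table the thick filament genes Myl1, a skeletal light chain (0.73, FDR 0.00747), and Myom3, an M-band protein (1.15, FDR 0.0432), gained peaks. Among thin filament genes the tropomyosin gene Tpm2 lost 1 of its 4 listed peaks (deposited log2 fold -2.32, FDR 0.0213), and Tpm1 lost 1 of 3. Of the other tropomyosin genes, Tpm3 had 2 listed peaks, neither of them called, and Tpm4 had no listed peak. The leiomodins Lmod2 (1.22, FDR 0.00565) and Lmod3 (0.65, FDR 0.0194), which nucleate actin filaments, gained peaks in the deposited table. Nebl, the gene of the Z-disc protein nebulette, had one of each (deposited log2 fold 3.01, FDR 0.023, and -2.24, FDR 0.0272). The Nebl gain started from a control log2 level of 0.08, against a median of 3.78 over listed peaks.

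Z-disc genes held 4 gained and 1 lost of 85 peaks, and 1 gained and 7 lost in the retest. Palld, an actin-bundling protein gene, held the lost one (deposited log2 fold -2.57, FDR 2.01e-05) and a gained one (1.53, FDR 0.000113). Pdlim5 had 2 gained peaks, one at its promoter (deposited log2 fold 0.7, FDR 0.00133) and another with a larger fold (1.22, FDR 0.0262), and Mypn 1 (1.02, FDR 0.0279). Smyd1, a methyltransferase gene needed for sarcomere assembly, gained a peak (deposited log2 fold 1.78, FDR 0.0124), as did Fbxo32, a ubiquitin ligase gene of muscle atrophy (0.71, FDR 0.049). Only 2 of 6 skeletal myosin heavy chain genes had a listed peak, and neither passed (deposited log2 folds -1.43 and 0.68).

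The wider natriuretic pathway had 7 gained and 0 lost of 28 peaks (25.0% and 0.0%), at 4 of its 5 genes with a listed peak, and 4 gained and 1 lost in the retest. Mme, the gene of neprilysin, which degrades natriuretic peptides, held 4 of the 7, the strongest with a deposited log2 fold of 2.69 (FDR 3.84e-06). Corin, whose protease processes pro-ANP, gained a peak in an intron (deposited log2 fold 1.19, FDR 1.07e-06). Npr3, the clearance receptor (2.14, FDR 0.00285), and Nppc, the gene of C-type natriuretic peptide (1.48, FDR 0.00326), gained 1 each in the deposited table. The Nppc gain missed the retest (adjusted p = 0.0826). Peaks of the same gene are not independent, and the difference of this list from the others was not tested.

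Genes of cardiac transcription factors, which act on sarcomere and peptide genes in heart muscle, had 6 gained and 1 lost of 73 peaks (8.22% and 1.37%), but 2 gained and 10 lost in the retest. Gains lay at Gata4 and Gata6, 2 each, Tbx20 and Mef2a, with deposited log2 folds from 1.12 at Mef2a to 3.05 at Gata4 among the strongest of each gene, and the loss lay at Mef2c (-1.5, FDR 0.0287). The Gata4 fold of 3.05 started from a control log2 level of 0.35, against a median of 3.78 over listed peaks. Both Gata4 gains lie on chromosome 14, where 3586 of 6230 listed peaks (57.6%) were gained. The gains at Gata6 and Mef2a missed the retest, as did 1 of the 2 at Gata4. Non-muscle contractile genes, paralogs that stem cells use, had 7 gained and 2 lost of 49 peaks (14.3% and 4.08%), but 1 gained and 4 lost in the retest. Among them Myh10, a non-muscle myosin heavy chain, had a deposited log2 fold of 2.45 (FDR 1.04e-05) and Myh9 2 gained peaks (1.02 and 1.06). Actn1 had 2 gained and 1 lost, Actb 1 of each, and Actg1 1 gained (0.77, FDR 0.00123). Of these 7 gains the one at Myh10 passed the retest, and both losses did. Stem cell markers had 25 gained and 2 lost of 72 peaks (34.7% and 2.78%), and 4 gained and 5 lost in the retest. Most of these gains lay at 3 genes, Esrrb (10), Tfcp2l1 (6) and Klf2 (4). Nanog and Zfp42 had 2 each and Pou5f1 had 1, while Sox2, Klf4, Tdgf1 and Dppa3 had 0. The losses lay at Nanog and Dppa3.

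**Figure D4:**
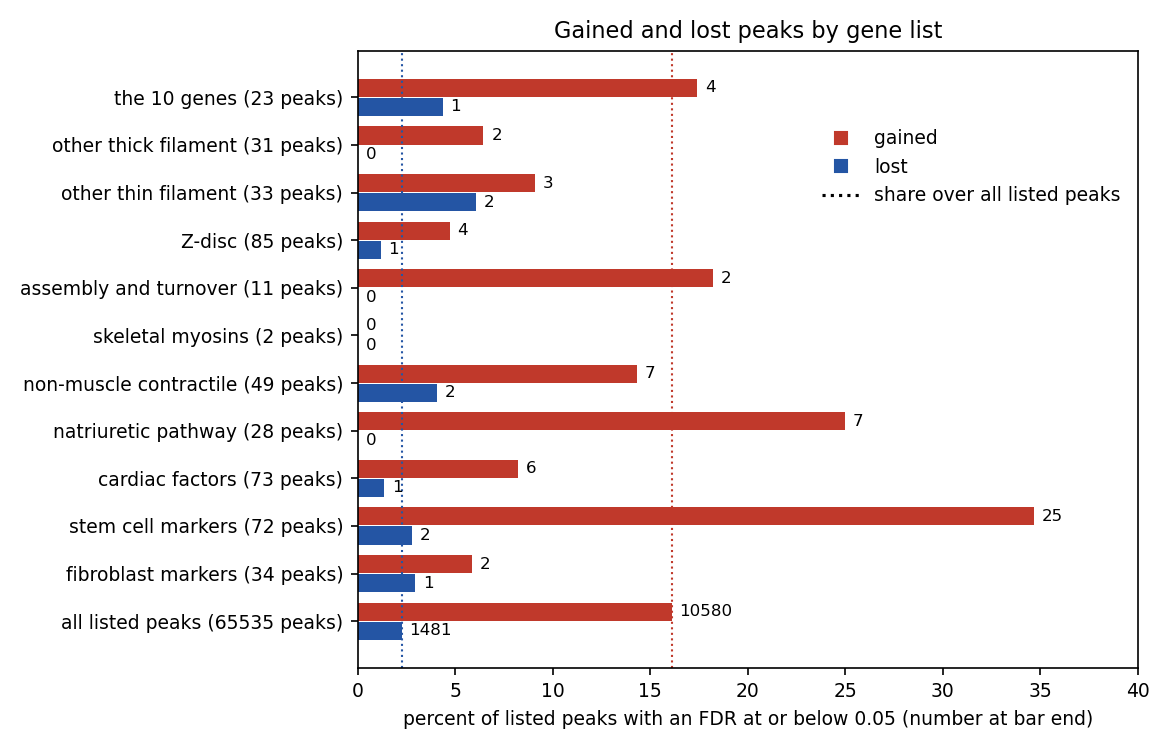
Percent of listed peaks gained (red) and lost (blue) at an FDR of 0.05 or less in each gene list, with the number of peaks at the end of each bar and dotted lines at the shares over all listed peaks, 16.1% and 2.26%. The 10 genes lie near both lines, other thick and thin filament and Z-disc genes lie below the gained line, and stem cell markers lie farthest above it. Most gains of the stem cell markers lay at Esrrb, Tfcp2l1 and Klf2. Calls are the deposited ones: centred and retested, other sarcomere genes had 1 gained and 14 lost peaks and stem cell markers 4 and 5. Over all listed peaks that retest called 4.47% gained and 8.93% lost. Without chromosome 14 the deposited gained share over all listed peaks was 11.8%.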

How the data were processed

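Accessible chromatin of mouse embryonic stem cells was profiled by ATAC-seq in 3 control and 3 Lmna knockout libraries. The submitters' processing notes list Bowtie2, MACS2, DiffBind, DESeq2 and ChIPseeker, as well as Trimmomatic 0.39, Picard 1.119, bedtools 2.28.0, SAMtools and deepTools, with the build mm10. The order and settings of these tools, any Tn5 shift and the fitted model were not given in the sources used here. The authors deposited log2 concentrations per group, log2 folds, and p-values with FDR per peak, per the file headers. Folds equalled knockout minus control within 0.01. The number of tested peaks, about 99078, was estimated as FDR times rank divided by p.

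Every listed peak of the 10 genes is reported. Members, gene lists and tests were chosen with earlier results of these data known. Named genes were the members, genes with a called peak in the sarcomere, natriuretic, cardiac factor and non-muscle lists, and genes with a called peak within 100 kb of a called member peak. Stem cell markers were named for their counts, and fibroblast markers were not named. Tpm3 and Tpm4 were named beside Tpm2, and a few genes as the nearest to, or the host of, a peak. No gene was named for a pattern like the members', since 1 comparison exists. Gene positions and promoter sequences came from RefSeq (GRCm38.p6), which held the gene ID of 99.9% of listed peaks. The retest and the implied SE were run on simulated data, which checks the code only. The simulated p-values came from the same normal formula, so recovery of the SE was fixed in advance. The simulated offsets were smaller than 0.49. Whether the normal formula holds for the deposited p-values was not tested. Alternatives were an FDR of 0.01 or 0.1, a log2 fold of 1 or more in size, higher mean or control concentration, shorter distance, centring with a retest, and assignment by RefSeq position. Computation used pandas 2.3.3, numpy 2.4.6 and SciPy 1.17.1 under Python 3.11.15, with plots by matplotlib 3.10.9.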

Additional observations from a re-analysis of the deposited data

How the results depend on the processing

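Assignment by RefSeq position, the filter on control concentration and the background without chromosome 14 were chosen after seeing the data. The 4 gained peaks and their 3 genes kept their counts at an FDR of 0.01, among folds of 1 or more in size on the log2 scale, within 10 kb of a transcription start and by RefSeq position. After centring and retesting 2 peaks were gained, and at an FDR of 0.1 there were 5 genes with a gained peak. The lost peak and its gene, Tpm1, counted 0 at an FDR of 0.01. Among peaks with a mean concentration at or above the median, 4 were gained, at 3 genes, and 0 lost, at 0 genes. By control concentration 1 was gained, at 1 gene, and 1 lost. Both filters are partly set by the change itself and say nothing of its stability. The median log2 fold was 0.06 after centring and between 0.49 and 0.69 otherwise. The offset of the centring comes from listed peaks alone and may be too large. No paired analysis was possible because the deposited values are means of each group, and leaving out each replicate or rescaling libraries was not run either. The depth behind each value is unknown.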
